A study of Mus musculus with 48 samples.

Results

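The 4 genes Cntnap1, Clstn3, Tceal8 and Cbx7 were followed in 3 tissues, the liver, brown fat (BAT) and the white fat of the epididymis (eWAT), of mice labelled as lacking angiotensinogen in hepatocytes. They are 4 of the 56748 Ensembl identifiers in the deposited count tables. They were chosen by their difference between the genotypes in liver at room temperature, with no numerical threshold stated, so that difference is described below with no test. The study compared male hepAGT-/- mice (KO) with hepAGT+/+ littermates (WT). Agt, the deleted gene, encodes the precursor of the angiotensin peptides. All groups ate the same Western diet with 21% milk fat and 0.2% cholesterol (TD.88137) over 12 weeks, and were housed at 20 to 22 °C (RT) or at 30 °C, which is thermoneutral for mice (TN). The 4 combinations of genotype and housing, each sampled in every tissue, give 12 groups of 4 libraries. Age, and the promoter or method behind the deletion, are not given in the labels used here. The labels number the libraries as biological replicates, and p-values measure the spread between them.

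Cntnap1 encodes contactin-associated protein 1 (Caspr), a membrane protein of the paranodal junction between axon and myelinating glia. Clstn3 encodes calsyntenin-3, a cadherin-type transmembrane protein of synapses, and its locus also yields Clstn3b, an adipocyte product associated with lipid droplets. Tceal8 belongs to a family of small X-linked proteins that resemble the elongation factor TFIIS (the Tcea proteins). Cbx7 encodes a chromodomain subunit of canonical Polycomb repressive complex 1 (PRC1), which binds methylated histone H3 and takes part in gene silencing. The gene counts do not separate Clstn3b from calsyntenin-3.

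By the annotation of mouse build GRCm38, Cntnap1 (ENSMUSG00000017167) lies at chr11:101170523-101190724 on the plus strand. Clstn3 (ENSMUSG00000008153) lies at chr6:124430759-124464794, Tceal8 (ENSMUSG00000051579) at chrX:136168984-136172342 and Cbx7 (ENSMUSG00000053411) at chr15:79915807-79971119, all on the minus strand. Cntnap1 overlaps Plekhh3 and Ccr10, and Cbx7 overlaps Apobec3 over its last bases, each on the opposite strand. The strand setting of the counting is not given in the sources used here, so reads in those stretches cannot be told apart. In liver at TN, Plekhh3 averaged 12.2 ± 2.18 counts per 1000000 library counts (CPM, ± SD of 4 libraries) in WT against 10.8 ± 2.02 in KO, and Apobec3 4.59 ± 2.53 against 9.13 ± 4.82. Neither passed the edgeR quasi-likelihood test (adjusted p 0.721 and 0.180). Ccr10 averaged 0.182 CPM in WT and 0.133 in KO liver. In BAT at RT, Apobec3 averaged 3.10 ± 0.995 CPM in WT against 8.97 ± 3.28 in KO, the same direction as Cbx7 there (log2 change 1.53, edgeR adjusted p 0.113). At TN the WT average of Apobec3 in BAT was 16.7 ± 8.04 CPM, above its RT level as for Cbx7. Plekhh3 averaged 38.9 ± 3.35 CPM at RT and 23.2 ± 6.52 CPM at TN in WT BAT, lower at TN as for Cntnap1. In KO BAT it averaged 42.9 ± 7.26 CPM at RT and 43.4 ± 10.6 CPM at TN, not lower, whereas Cntnap1 was lower at TN there too. What the reads of these neighbours add to Cbx7 and Cntnap1 was not tested.

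The promoter windows of Clstn3, Tceal8 and Cbx7 are shown because Clstn3 and Tceal8 were lower in KO liver at RT while Cbx7 was higher, and because Clstn3 has 2 listed starts. Sequences are from RefSeq, build GRCm38.p6, written 5′ to 3′ on the gene's strand, from 250 bases before to 50 after a start. Capitals mark matches, on either strand, to CCAAT, to GGGCGG (the GC box), to CACGTG (an E-box), to TATAAA (the TATA box) or to TGACGTCA (the cAMP response element, CRE). No matched motifs overlapped each other.
Clstn3, outer start, chr6:124464735-124465034, minus strand: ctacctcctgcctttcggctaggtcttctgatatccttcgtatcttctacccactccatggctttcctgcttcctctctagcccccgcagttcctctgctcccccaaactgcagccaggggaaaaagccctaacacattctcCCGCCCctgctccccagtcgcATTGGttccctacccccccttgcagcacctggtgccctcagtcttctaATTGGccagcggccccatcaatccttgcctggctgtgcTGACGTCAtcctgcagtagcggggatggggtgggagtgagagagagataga
Clstn3, inner start, chr6:124462695-124462994, minus strand: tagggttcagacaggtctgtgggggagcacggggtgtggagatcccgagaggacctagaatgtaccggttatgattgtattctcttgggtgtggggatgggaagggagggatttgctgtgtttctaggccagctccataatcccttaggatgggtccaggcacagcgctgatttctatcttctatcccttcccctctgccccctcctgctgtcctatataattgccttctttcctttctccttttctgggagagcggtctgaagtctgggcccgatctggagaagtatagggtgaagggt
Tceal8, chrX:136172202-136172501, minus strand: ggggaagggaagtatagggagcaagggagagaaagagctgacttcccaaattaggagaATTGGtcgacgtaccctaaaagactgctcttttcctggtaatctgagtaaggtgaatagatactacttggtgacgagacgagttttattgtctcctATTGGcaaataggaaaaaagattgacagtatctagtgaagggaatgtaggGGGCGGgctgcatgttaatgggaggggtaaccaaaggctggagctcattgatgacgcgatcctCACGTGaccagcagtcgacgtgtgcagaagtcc
Cbx7, chr15:79932597-79932896, minus strand: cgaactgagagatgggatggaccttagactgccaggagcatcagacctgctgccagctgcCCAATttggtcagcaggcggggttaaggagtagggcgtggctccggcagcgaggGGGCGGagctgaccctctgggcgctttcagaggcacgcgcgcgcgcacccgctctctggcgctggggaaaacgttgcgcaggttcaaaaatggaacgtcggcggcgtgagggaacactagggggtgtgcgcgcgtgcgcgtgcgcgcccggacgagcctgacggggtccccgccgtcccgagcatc

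The outer Clstn3 window holds the CRE palindrome once, a sequence present in 1.8% of the 32851 windows of the RefSeq table. It also holds CCAAT 2 times and the GC box once, while the inner window, inside the gene, holds none of the 5 motifs. Tceal8 has 1 E-box, found in 7.2% of all windows, 2 CCAAT matches and 1 GC box. Cbx7 has 1 CCAAT match and 1 GC box, which occur in 37.4% and 35.7% of all windows. The exact string TATAAA, present in 13.6%, is in none of these windows. Variants of the TATA box were not searched, and the inner Clstn3 window holds the letters tatataa. CpG dinucleotides number 33 in the Cbx7 window, 10 in that of Tceal8, and 8 and 6 in the outer and inner Clstn3 windows, against a median of 7 over the table. These matches describe the letters only and say nothing of which factor binds. The RefSeq start of Cbx7 lies inside the annotated gene.

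In units of 1000000 counts (M), library totals ran from 23.7 to 36.5 M in liver, 25.3 to 39.4 M in BAT and 28.7 to 43.7 M in eWAT. Levels are CPM with TMM scaling (edgeR's trimmed means) within a tissue. A gene is called where its edgeR adjusted p, over all genes tested in the comparison, is under 0.05. In liver, Agt ran from 276 to 435 CPM in WT against 143 to 202 in KO at RT, and from 309 to 504 against 125 to 207 at TN, so no library overlapped between genotypes, and KO liver still held Agt reads, at 167 CPM on average at both temperatures. The counts are for the whole gene, so they do not check the deleted part alone. Summed markers of hepatocytes were 48030 to 86940 CPM in liver, and those of adipocytes 5724 to 12670 CPM in BAT and 9519 to 15200 CPM in eWAT. A few libraries stood apart. Liver KO RT replicate 19 held 383 counts of the brown fat gene Ucp1, which was at 0 in the other liver libraries. In BAT, summed endothelial markers were 389 CPM in WT RT replicate 12 against 113 to 137 in its group, and 228 CPM in WT TN replicate 24 against 705 to 754. In eWAT, WT RT replicate 18 had epididymis markers at 881 CPM, the highest of the tissue.

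In liver at RT, the contrast that chose the genes, Cntnap1 was at 5.84, 7.64, 9.03 and 9.14 CPM in the WT libraries and at 1.13, 1.62, 2.48 and 2.62 CPM in KO. The lowest of these KO values rests on 35 reads. Clstn3 was at 52.6, 56.4, 57.7 and 73.9 CPM in WT and 16.7, 25.6, 28.3 and 34.2 CPM in KO, the last of which is replicate 19, the library with Ucp1 reads. Tceal8 was at 21.5, 30.2, 32.5 and 37.7 CPM in WT and 10.1, 12.3, 14.6 and 15.7 CPM in KO. Cbx7 went the other way, with 6.30, 7.61, 9.14 and 9.36 CPM in WT and 13.3, 16.9, 17.9 and 19.6 CPM in KO. No WT library overlapped a KO library for any of the 4. The log2 changes were -2.01 for Cntnap1, -1.20 for Clstn3, -1.21 for Tceal8 and 1.06 for Cbx7. All 4 are among the 15 of 17594 genes called in this contrast (0.0853%), a count that the choice itself fixes. In bulk tissue, fewer cells of a type and less RNA per cell cannot be told apart.

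**Figure D1:**
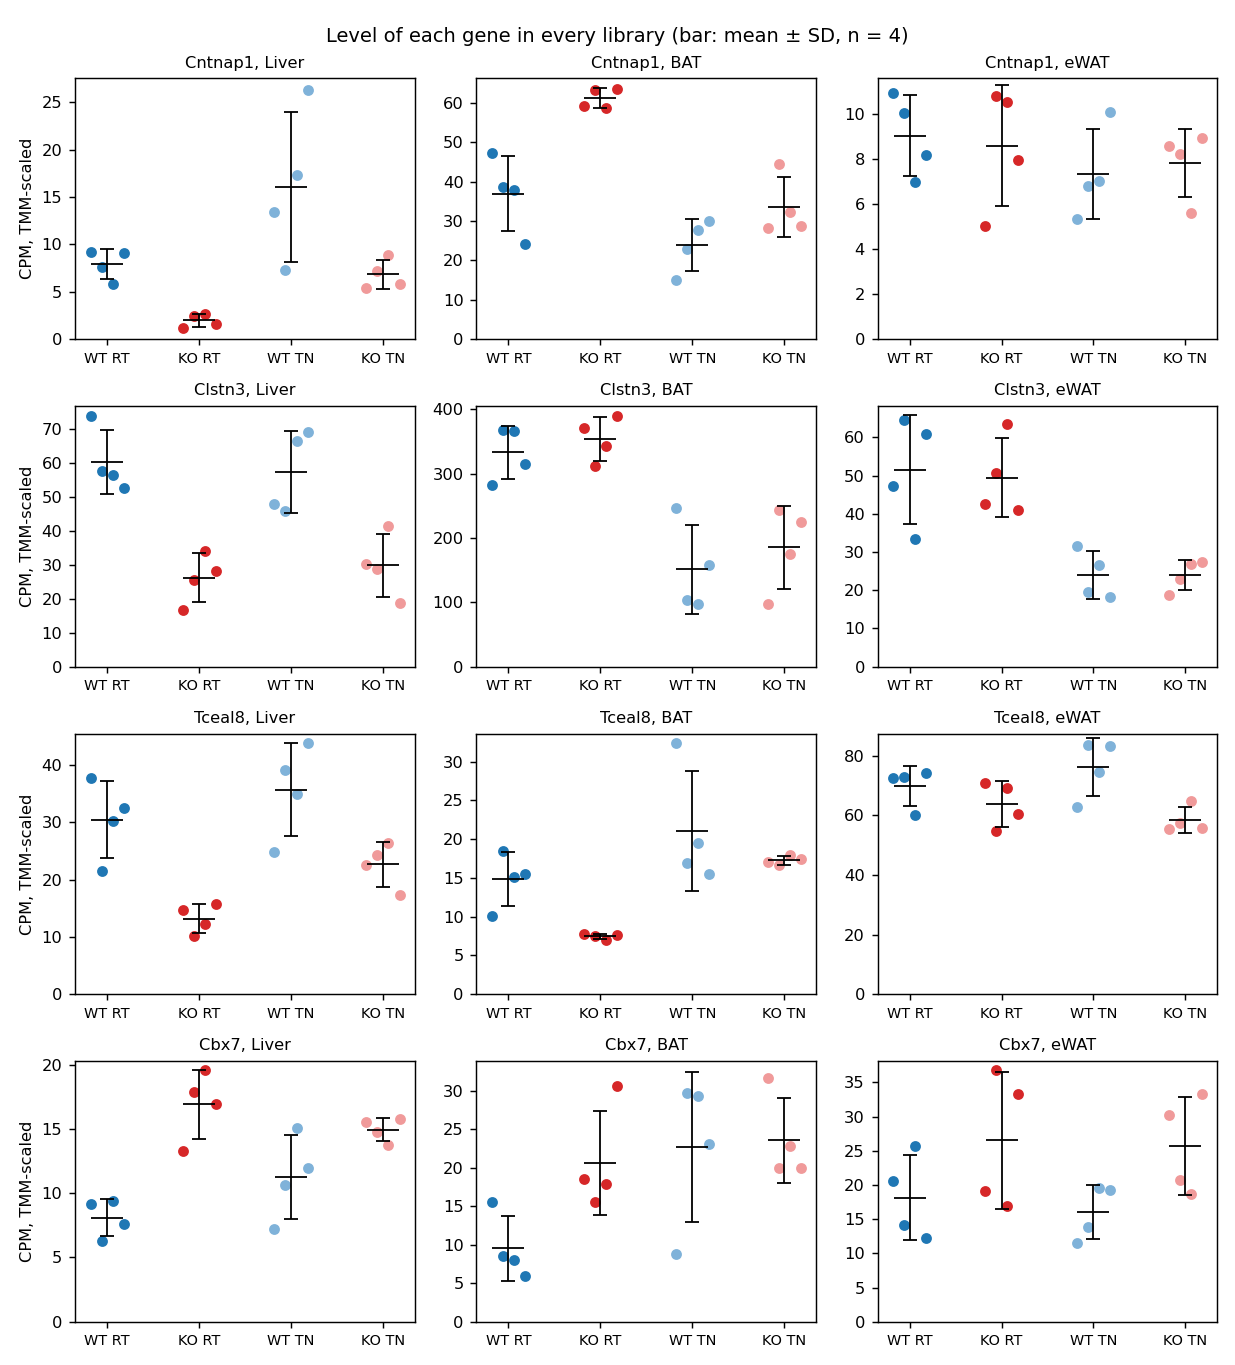
TMM-scaled CPM (vertical axes, from 0) of each gene in every library of the 12 groups, by tissue; points are libraries and bars the mean ± SD of 4. In liver the KO points of Cntnap1, Clstn3 and Tceal8 lie low at RT, Clstn3 in BAT and eWAT lies lower at TN, and in BAT the WT TN library with 8.82 CPM of Cbx7 sits apart.

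At TN, in libraries that took no part in the choice, Cntnap1 and Clstn3 fell in KO liver as well. Cntnap1 was at 7.28, 13.4, 17.3 and 26.3 CPM in WT and at 5.43, 5.76, 7.22 and 8.84 CPM in KO. Of the KO libraries, 3 lay below every WT library and 1 overlapped, and the WT values spread widely. The log2 change was -1.24 (SE 0.32, edgeR quasi-likelihood adjusted p 0.0331). Clstn3 was at 46.0, 47.9, 66.4 and 69.1 CPM in WT and 18.8, 28.7, 30.2 and 41.5 CPM in KO, with no overlap. Its log2 change was -0.94 (SE 0.23, edgeR adjusted p 0.0270). These were 2 of the 4 genes, both lower, where 3.18% of 17594 genes were called. Of those calls 42.0% were higher in KO, and 70.3% with plain library totals in place of TMM. Each call was lost when most single libraries were left out. For Cntnap1 this was so for every one of the 8 except WT TN replicate 24, with adjusted p up to 0.148 (log2 change -0.89, without WT TN replicate 7). For Clstn3 it was so without WT TN replicate 6 or 7 or KO TN replicate 2, 5 or 22, with adjusted p up to 0.0863. Fitting only the 8 libraries compared gave an adjusted p of 0.0523 for Cntnap1.

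Tceal8 and Cbx7 kept the sign of the RT contrast at TN without passing the test. Tceal8 was at 24.8, 34.95, 39.1 and 43.8 CPM in WT and 17.2, 22.6, 24.4 and 26.5 CPM in KO. The highest KO library lay above the lowest WT library. Its log2 change was -0.66 (SE 0.19, edgeR adjusted p 0.0648, and 0.0363 by DESeq2). Cbx7 was at 7.22, 10.6, 12.0 and 15.1 CPM in WT and 13.7, 14.7, 15.5 and 15.7 CPM in KO, which overlap, with a log2 change of 0.41 (SE 0.20, edgeR adjusted p 0.298). The difference between the genotype effects at TN and at RT rests on the contrast that chose the genes and has no test. It was 0.78 for Cntnap1, 0.26 for Clstn3, 0.55 for Tceal8 and -0.65 for Cbx7 on the log2 scale, towards 0 from the RT values in each case.

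Cell type markers moved in part with these liver groups. At TN the macrophage and Kupffer cell markers summed to 187 to 330 CPM in WT and 266 to 735 CPM in KO, and 1 of 6, Vsig4, was called higher in KO. Summed T cell markers were 1.15 to 4.27 and 3.32 to 20.5 CPM, with 0 of 4 called. Summed B cell and lymph node markers were 6.88 to 13.7 CPM in WT and 13.3 to 31.4 CPM in KO, and 1 of 5, Ighm, was called higher in KO. The 6 markers of white and brown adipocytes summed to 58.01 to 129 CPM in WT and 5.40 to 65.3 CPM in KO at RT, and to 91.3 to 191 and 27.6 to 176 CPM at TN. Cfd made up most of these sums, at 46.1 to 102 CPM in WT and 5.34 to 36.4 CPM in KO at RT. Cidea was at 4.59 to 26.6 and 0.0663 to 4.76 CPM there. Of the 6, 2 were tested in liver and 0 were called for genotype. Adipoq and Ucp1 were at 0 in every liver library except KO RT replicate 19. Without that library the RT changes were -2.18 for Cntnap1, -1.35 for Clstn3, -1.18 for Tceal8 and 0.98 for Cbx7. The part of these cells in the changes of the 4 genes was not tested. Markers of Schwann cells, the glia that face Cntnap1 at the paranode, summed to 5.81 to 9.82 CPM in WT and 7.49 to 14.0 CPM in KO at TN. Of that list, the Schwann factor Sox10 was at 0 counts in all 16 liver libraries, while 6 of the 7 had enough counts to be tested and 0 were called for genotype. The 5 neuron markers summed to 6.08 to 12.6 CPM in WT and 7.98 to 11.4 CPM in KO liver at TN. Snap25, 1 of these 5, was at 0 counts in all 16 liver libraries, while 2 of the 5 were tested and 0 were called for genotype. The neuron sums at TN reached at most 1.14 CPM in BAT and 4.08 CPM in eWAT, below those of liver. Of the 6 hepatocyte markers, none was called in either genotype comparison.

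The temperature comparisons in liver share the RT libraries with the contrast that chose the genes, and a difference from those libraries is partly built in, so values are given with no test. In KO, the TN minus RT log2 changes were 1.80 (SE 0.33) for Cntnap1, 0.19 (SE 0.22) for Clstn3, 0.78 (SE 0.20) for Tceal8 and -0.18 (SE 0.20) for Cbx7. The groups did not overlap for Cntnap1 and Tceal8. In WT they were 1.02 (SE 0.31), -0.07 (SE 0.22), 0.23 (SE 0.19) and 0.47 (SE 0.20) in the same order. Over all genes, edgeR called 0.114% in KO and 0.0227% in WT. Nothing is read from these shares for the 4 genes.

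In BAT each of the 4 genes differed with housing temperature in at least 1 genotype. BAT burns fuel for heat, and this demand is low at thermoneutrality. Clstn3 was at 283, 315, 366 and 369 CPM in WT at RT and at 96.6, 104, 157 and 247 CPM at TN. No library overlapped, although WT TN replicate 24, with 247 CPM, stood near the RT group. The log2 change was -1.14 (SE 0.28, edgeR adjusted p 0.00488). In KO, Clstn3 went from 312, 343, 372 and 390 CPM to 98.0, 175, 225 and 244 CPM, again without overlap, a log2 change of -0.93 (SE 0.28, edgeR adjusted p 0.0302). That KO call was lost without KO RT replicate 9, 10 or 19 or KO TN replicate 2 or 4, with adjusted p up to 0.0953. Scaling moved the values of this tissue, since plain library totals in place of TMM moved the median TN minus RT change of all genes from 0.11 to 0.65 in WT and from 0.04 to 0.42 in KO, and the share of calls that were higher at TN from 48.8% to 87.2% and from 43.8% to 86.1%. With those totals Clstn3 changed by -0.63 in WT (adjusted p 0.0377) and -0.55 in KO (adjusted p 0.1001, not called). Without WT TN replicate 24 the WT change of Clstn3 was -1.48 (adjusted p 0.000202). Markers of several cell types moved with temperature in this tissue. Adipocyte marker sums in WT were 8354 to 12670 CPM at RT and 5724 to 9371 CPM at TN, but single markers went both ways. Of these 6 markers, 1 (Lep) was called higher and 2 (Cidea and Ucp1) lower at TN in WT. In KO, 2 (Lep and Cfd) were called higher and 2 (Cidea and Ucp1) lower. Macrophage marker sums were 11.6 to 24.1 CPM at RT and 52.8 to 101 CPM at TN in WT, and 13.3 to 16.4 and 38.9 to 53.8 CPM in KO, with the same 3 of 6 (Adgre1, Cd68 and Csf1r) called higher at TN in each genotype. Of 5 endothelial markers, 3 (Vwf, Pecam1 and Cdh5) were called higher at TN in WT and 0 in KO, and skeletal muscle sums reached 330 CPM in WT and 2968 in KO at RT, and 4248 and 5923 at TN. These sums use plain library totals, and the part of these cells in the changes of the 4 genes was not tested.

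Cntnap1, higher in BAT than in liver over all groups, fell at TN too. In KO it was at 58.8, 59.2, 63.4 and 63.5 CPM at RT and 28.2, 28.7, 32.4 and 44.6 CPM at TN, a log2 change of -0.87 (SE 0.21, edgeR adjusted p 0.00864). In WT it was at 24.3, 37.9, 38.5 and 47.3 CPM at RT and 15.1, 22.9, 27.7 and 29.9 CPM at TN. These overlap, and the log2 change was -0.63 (SE 0.21, edgeR adjusted p 0.0285). With plain library totals neither call held (adjusted p 0.758 in WT and 0.169 in KO), and the changes were -0.10 and -0.49. The WT call was lost too without WT RT replicate 12, 15 or 17 or WT TN replicate 6 or 24, with adjusted p up to 0.0860. With plain library totals, summed Schwann cell and nerve markers were 71.8 to 105 CPM over both RT groups and 96.4 to 209 CPM over both TN groups. Of the 7, the myelin gene Mbp was called lower and Prx higher at TN in WT, and 0 in KO. Over all genes, 32.5% were called in WT and 15.2% in KO. The part of these markers in the Cntnap1 change was not tested.

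Tceal8 rose at TN in KO, from 6.97, 7.45, 7.61 and 7.77 CPM to 16.7, 17.0, 17.5 and 17.9 CPM. Both groups were tight and did not overlap, with a log2 change of 1.21 (SE 0.21, edgeR adjusted p 0.000892). In WT it was at 10.1, 15.1, 15.5 and 18.5 CPM at RT and 15.5, 16.9, 19.5 and 32.3 CPM at TN, a log2 change of 0.51 (SE 0.21, edgeR adjusted p 0.0711). With plain library totals this WT change was 1.07 and was called (adjusted p 0.000498). Cbx7 rose at TN in WT, from 6.00, 8.00, 8.58 and 15.6 CPM to 8.82, 23.1, 29.3 and 29.7 CPM. The 15.6 CPM at RT is replicate 12 and the 8.82 CPM at TN replicate 24, the libraries whose endothelial marker sums also lay apart from their groups, and the part of those cells was not tested. The log2 change was 1.25 (SE 0.36, edgeR adjusted p 0.0152), and the adjusted p was 0.0505 and 0.0502 without WT RT replicate 17 or 18. Without replicate 12 it was 1.59, and without replicate 24 1.52, both called. In KO, Cbx7 was at 15.5, 18.0, 18.6 and 30.6 CPM at RT and 20.0, 20.0, 22.8 and 31.7 CPM at TN (log2 change 0.19, SE 0.35, edgeR adjusted p 0.793). Of the 4 genes, 3 were called in WT and 3 in KO, where 32.5% and 15.2% of 18032 genes were called. The interaction of genotype and temperature was called for 0 of 4 by edgeR and by DESeq2 (0.0% of all genes by edgeR), with 1, Tceal8, at an unadjusted p under 0.05 (log2 0.71, SE 0.30, adjusted p 0.474). The Cbx7 interaction was -1.06 (SE 0.50, edgeR adjusted p 0.494).

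**Figure D2:**
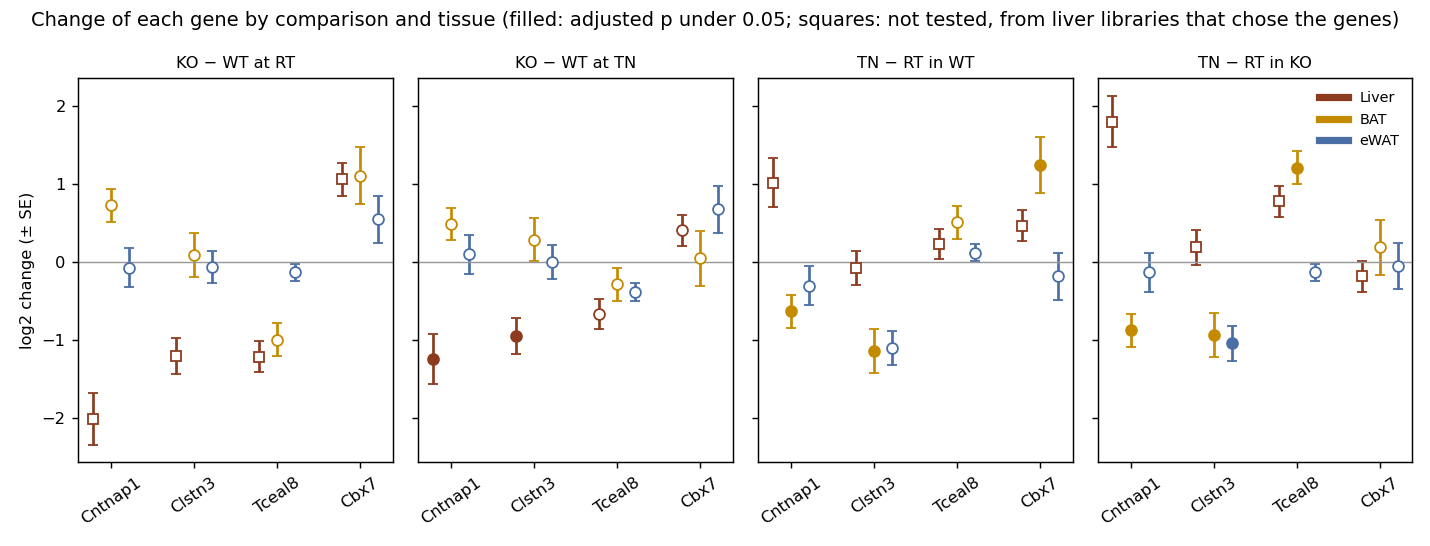
Log2 change with its SE (vertical axis) of each gene in 4 comparisons, one panel each, by tissue; filled circles passed the edgeR test and squares are liver values that use the RT libraries that chose the genes and have no test. Clstn3 lies between -1.14 and -0.93 in BAT and eWAT for both temperature comparisons, while its liver values there are -0.07 and 0.19.

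The genotype comparison in BAT at RT called 0 of the 4 genes by edgeR, against 0.0887% of all genes, while 3 had an unadjusted p under 0.05 and DESeq2 called the same number. Cntnap1, at 24.3 to 47.3 CPM in WT and 58.8 to 63.5 CPM in KO, did not overlap and had a log2 change of 0.73 (SE 0.21, edgeR adjusted p 0.111), opposite in sign to liver. Tceal8, at 10.1 to 18.5 and 6.97 to 7.77 CPM, did not overlap either (log2 change -0.99, SE 0.21, edgeR adjusted p 0.0673). Cbx7 overlapped by 1 KO library (log2 change 1.11, SE 0.36, edgeR adjusted p 0.131), and Clstn3 had a log2 change of 0.09 (SE 0.28). Without WT RT replicate 12, these became 0.87 for Cntnap1, -1.14 for Tceal8 and 1.45 for Cbx7, each called by edgeR (adjusted p 0.0202, 0.00607 and 0.0209), in a fit that called 1979 genes in place of 16. Endothelial marker sums were 113 to 389 CPM in WT and 345 to 724 CPM in KO at RT, and skeletal muscle marker sums ran from 1.19 to 2968 CPM over these 8 libraries. Their part was not tested. At TN edgeR called 0 of the 4 genes (0.0% of all genes) and DESeq2 0, with 1 at an unadjusted p under 0.05. The changes were 0.49 (SE 0.21) for Cntnap1, 0.29 (SE 0.28) for Clstn3, -0.28 (SE 0.21) for Tceal8 and 0.05 (SE 0.35) for Cbx7.

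In eWAT, Clstn3 fell at TN in KO. It was at 41.0, 42.6, 50.7 and 63.6 CPM in KO at RT and 18.9, 22.8, 26.9 and 27.4 CPM at TN, with no overlap. The log2 change was -1.04 (SE 0.22, edgeR adjusted p 0.0284), 1 of 4 genes where 1.74% of 18933 were called. That call was lost without KO RT replicate 10 or 19 or KO TN replicate 3, 4 or 21, with adjusted p up to 0.121, and with only the 8 libraries compared (adjusted p 0.0554), a fit that called 0 genes in place of 330. In KO the adipocyte markers summed to 11420 to 15200 CPM at RT and 10330 to 14660 CPM at TN, macrophage markers to 123.5 to 165.5 and 216 to 242 CPM, and hepatocyte markers to 103 to 4283 and 50.9 to 441 CPM, with their part in the Clstn3 change not tested. In WT Clstn3 was at 33.4, 47.1, 61.0 and 64.6 CPM at RT and 18.3, 19.6, 26.5 and 31.7 CPM at TN, also without overlap. That change, -1.10 (SE 0.22), was of similar size, but no gene of the tissue was called in WT by edgeR (0.0%), and the adjusted p was 0.135 (0.000859 by DESeq2, which called 95 genes). Of the 4 genes, edgeR called 0 in WT, with 1 at an unadjusted p under 0.05. The temperature changes of Cntnap1, Tceal8 and Cbx7 lay between -0.30 and 0.12 in the 2 genotypes. The interaction called 0 of the 4 by edgeR (0.0% of genes) and by DESeq2, and 0 had an unadjusted p under 0.05.

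Genotype called 0 of the 4 genes in eWAT at either temperature by edgeR, where 4.34% of all genes were called at RT and 0.586% at TN. At RT no unadjusted p was under 0.05 and DESeq2 called 0. At TN 2 had an unadjusted p under 0.05 and DESeq2 called 1, Tceal8. Tceal8 at TN was at 62.9, 74.6, 83.3 and 83.6 CPM in WT and 55.6, 55.8, 57.3 and 64.8 CPM in KO (log2 change -0.38, SE 0.11, edgeR adjusted p 0.121, and 0.0486 by DESeq2). Cbx7 at TN was at 11.5, 13.9, 19.3 and 19.5 CPM in WT and 18.7, 20.7, 30.3 and 33.3 CPM in KO, with 1 KO library in the WT range (log2 change 0.68, SE 0.30, edgeR adjusted p 0.321). At RT its values were 12.2, 14.2, 20.6 and 25.7 CPM in WT and 16.9, 19.1, 33.3 and 36.8 CPM in KO. The log2 change was 0.55 (SE 0.30, edgeR adjusted p 0.369). Cntnap1 stayed between 5.04 and 10.9 CPM in all 16 eWAT libraries, with genotype changes of -0.07 (SE 0.25) at RT and 0.10 (SE 0.25) at TN. Agt itself ran from 65.9 to 126 CPM in WT against 128 to 196 CPM in KO eWAT at RT, but was not called (log2 change 0.76, SE 0.54, edgeR adjusted p 0.531). At TN it ran from 8.98 to 133.6 CPM in WT and 132.4 to 213 CPM in KO. These overlap, and Agt was not called there either (log2 change 1.37, SE 0.54, edgeR adjusted p 0.285).

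Whether the genotype effect at TN differed between tissues was tested over the 24 TN libraries. None of the 4 genes passed by edgeR for liver minus BAT (0.506% of 20374 genes called), liver minus eWAT (2.02%) or BAT minus eWAT (0.00491%). Of the 4, 2, 2 and 0 had an unadjusted p under 0.05, and DESeq2 called 1, 1 and 0. The gene called by DESeq2 was Cntnap1 in both. Its difference was -1.74 (SE 0.41, edgeR adjusted p 0.0518) for liver minus BAT and -1.35 (SE 0.41, edgeR adjusted p 0.0830) for liver minus eWAT. For Clstn3 these differences were -1.26 (SE 0.43, edgeR adjusted p 0.183) and -0.96 (SE 0.43, edgeR adjusted p 0.248). For Tceal8 and Cbx7 they lay between -0.39 and 0.33.

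Levels also differed between tissues. Per kilobase of annotated exon, Clstn3 had the highest median of the 4 genes in BAT (53.3 CPM per kb) and Tceal8 in eWAT (26.1) and liver (9.58, with Clstn3 next at 8.80). Cntnap1 was the lowest in liver (1.23) and eWAT (1.40), and Cbx7 in BAT (2.97). Liver averages over all groups include the RT libraries that chose the genes, and values from WT TN libraries alone are given further on. Over all groups, Cntnap1 was lower in liver than in BAT, with a log2 difference of -2.40 (SE 0.14, edgeR adjusted p 4.62e-19). It did not pass against eWAT (0.18, SE 0.14, edgeR adjusted p 0.244). Clstn3 was ordered BAT, liver, eWAT, with log2 differences of -2.45 (SE 0.14) for liver minus BAT and 0.75 (SE 0.13, edgeR adjusted p 2.94e-06) for liver minus eWAT. Tceal8 was ordered eWAT, liver, BAT, at 0.87 (SE 0.09) for liver minus BAT and -0.95 (SE 0.09) for liver minus eWAT. Cbx7 was lower in liver than in BAT, with a log2 difference of -0.43 (SE 0.15, edgeR adjusted p 0.0109), and liver minus eWAT, at -0.25 (SE 0.15, adjusted p 0.140), and BAT minus eWAT did not pass. For BAT minus eWAT the log2 differences were 2.58 (SE 0.14) for Cntnap1, 3.20 (SE 0.14) for Clstn3, -1.83 (SE 0.10) for Tceal8 and 0.19 (SE 0.15) for Cbx7. That makes 4 of 4 called for liver minus BAT, 2 for liver minus eWAT and 3 for BAT minus eWAT, against backgrounds of 68.6%, 73.8% and 60.3% of 21910 genes, so the counts say little about these genes. In WT TN libraries alone, Cntnap1 in liver was not called against BAT (log2 -0.45, edgeR adjusted p 0.174) and was higher than in eWAT (1.68, edgeR adjusted p 2.16e-06). Clstn3 there was -1.27 for liver minus BAT and 1.80 for liver minus eWAT. Cbx7 in those libraries was -0.88 for liver minus BAT, and higher in BAT than in eWAT (0.92, edgeR adjusted p 0.0159). For Tceal8 liver minus eWAT was -0.55.

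**Figure D3:**
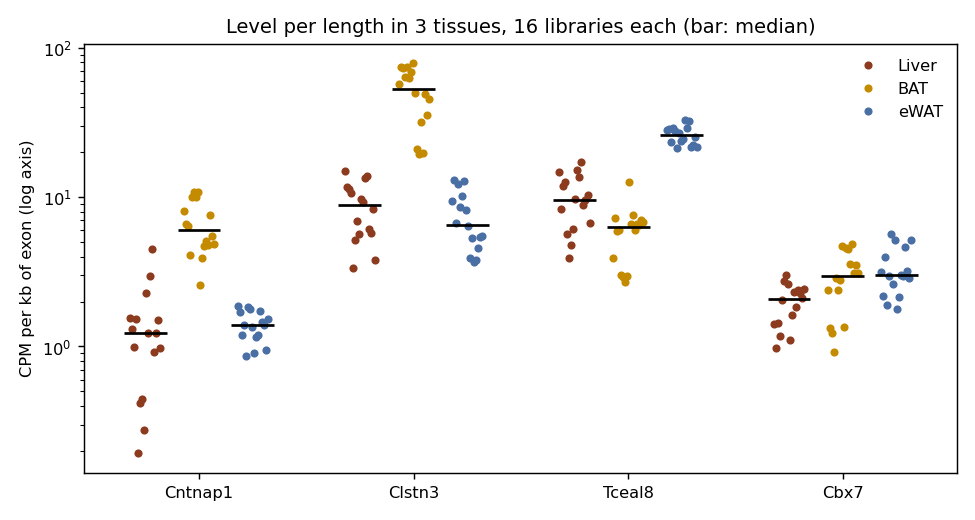
CPM per kb of exon (log axis) of each gene in the 16 libraries of each tissue, with the median as a bar. Clstn3 in BAT stands highest at a median of 53.3. Tceal8 in eWAT spans the least, and Cntnap1 in liver spans the most, its highest value 23.2 times its lowest.

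The 4 genes were compared with each other over the 16 libraries of a tissue as a description. These values carry the group differences, including the liver contrast that chose the genes. In liver, Pearson's r of log2(CPM + 0.5) was 0.76 between Cntnap1 and Clstn3, 0.82 between Cntnap1 and Tceal8 and 0.78 between Clstn3 and Tceal8. With each group's mean removed, these became 0.68, 0.09 and 0.38. Cbx7 had r of -0.45, -0.59 and -0.53 with Cntnap1, Clstn3 and Tceal8 in liver, and 0.31, 0.45 and 0.35 with the group means removed. In BAT, Cntnap1 and Tceal8 had an r of -0.90, and -0.66 within groups, against 0.82 and 0.09 in liver.

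The genes most like each in liver were those with the highest r over the 16 libraries, among 11841 genes. They were picked on these same libraries, so their levels are a description with no test. For Cntnap1 these were Apoa4, an apolipoprotein of triglyceride-rich particles (r 0.95), the sterol-binding protein gene Osbpl3 (0.943) and the lipid droplet protein gene Cidec (0.934). Apoa4 averaged 1225 ± 571 CPM in WT against 360 ± 47.2 in KO at RT, and 2063 ± 869 against 871 ± 199.6 at TN. For Clstn3 they were Cidea (0.904), a lipid droplet protein that is abundant in BAT, the endosomal sorting gene Chmp2b (0.887) and again Cidec (0.883). Cidec averaged 50.7 ± 27.7 CPM in WT against 6.89 ± 5.23 in KO at RT, and 87.8 ± 53.8 against 21.3 ± 11.8 at TN. For Tceal8 they were Smpd3, a neutral sphingomyelinase gene (0.917), Ano10 (0.873) and Tbc1d31 (0.870). Smpd3 averaged 24.6 ± 4.68 CPM in WT against 12.0 ± 3.12 in KO at TN. For Cbx7 they were the cell cycle kinase gene Cdk2 (0.939), the potassium channel subunit gene Kcne3 (0.886) and the Mediator subunit gene Med30 (0.863). By Spearman's rho 6 of the 12 named liver entries stayed among the top 3 of their gene.

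**Figure D4:**
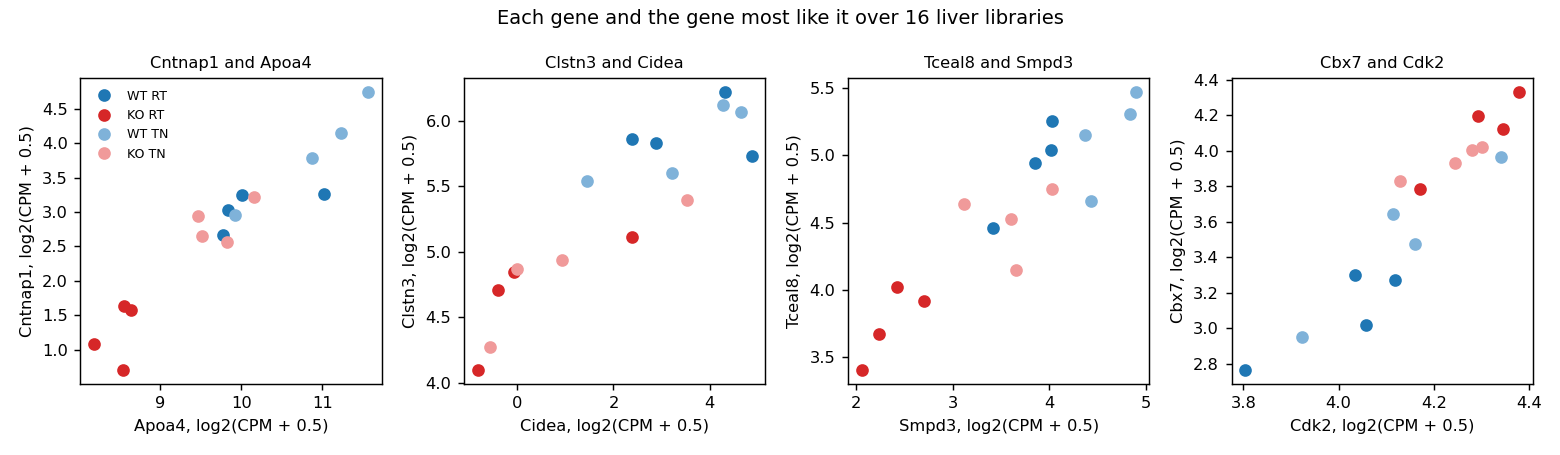
Log2(CPM + 0.5) of each gene (vertical axes) against the gene most like it (horizontal axes) over the 16 liver libraries, coloured by group. The KO RT points lie at the low end for Cntnap1 and Tceal8, with r of 0.95 and 0.917, and towards the high end for Cbx7.

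In BAT, Clstn3 lay closest to Tomm40 (0.975), a pore of the outer mitochondrial membrane, the mitochondrial elongation factor gene Tufm (0.959) and Dtnbp1 (0.959). Tceal8 lay closest to Gstm2 (0.942), Morf4l2 (0.926) and the succinate receptor gene Sucnr1 (0.922). Cbx7 lay closest to Fam193b (0.978), Hjurp (0.977) and Nxpe4 (0.977), and Cntnap1 to Ccdc18 (0.922), Fnbp1 (0.908) and Tm7sf2 (0.906), a sterol reductase gene. By Spearman's rho 1 of these 12 entries stayed in the top 3. In eWAT the nearest genes were Gba2 for Cntnap1 (0.900), Letm1, a mitochondrial inner membrane protein gene, for Clstn3 (0.836), Ostf1 for Tceal8 (0.941) and the transcription termination gene Pcf11 for Cbx7 (0.925).

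Partners and relatives of the 4 genes were read from lists, each counted over its members other than the 4. Of 6 other contactin-associated genes, Cntnap2 to Cntnap5c, none had enough counts to be tested in any tissue. Of 9 paranodal and axoglial partners, 4 were tested in liver and 0 were called for genotype at RT or TN, with a median log2 change of 0.20 at TN against 0.05 over all genes. Ank3, an ankyrin of axon segments, averaged 14.8 ± 2.85 CPM in WT against 15.8 ± 5.61 in KO liver at TN. In eWAT at RT, where 4.34% of all genes were called, 1 of 7 tested was called, the cell adhesion gene Nrcam, which fell by 1.57 on the log2 scale (SE 0.41, edgeR adjusted p 0.0359), from 2.03 ± 0.365 to 0.681 ± 0.163 CPM.

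Of 9 calsyntenins, neurexins and Clstn3b partners, 7 were tested in liver and 0 were called for genotype, with a median of -1.78 at RT and -0.09 at TN against 0.02 and 0.05 over all genes. Cidea averaged 15.0 ± 11.3 CPM in WT against 1.38 ± 2.24 in KO at RT, and 13.7 ± 10.1 against 3.29 ± 5.24 at TN. Clstn1, the other widely expressed calsyntenin, averaged 4.09 ± 0.984 CPM in WT against 5.75 ± 1.73 in KO liver at TN (log2 change 0.49, SE 0.31, edgeR adjusted p 0.452). In BAT, the list had 8 tested members, of which 2 were called higher and 4 lower at TN in WT, and 0 and 2 in KO, where 32.5% and 15.2% of all genes were called. Cidea fell there by 1.36 in WT and 0.78 in KO on the log2 scale (edgeR adjusted p 0.000182 and 0.0193), whereas Clstn1 rose by 0.89 in WT (adjusted p 0.00551).

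Of 13 Tceal, Bex and Tcea genes, 7 were tested in liver and 0 were called for genotype at RT or TN (median 0.17 and 0.06). Tceal9 averaged 9.90 ± 1.47 CPM in WT against 13.9 ± 2.06 in KO liver at TN, with a log2 change of 0.49 (SE 0.21, edgeR adjusted p 0.215), opposite in sign to Tceal8. In BAT of KO mice Tceal9 rose at TN, by a log2 change of 0.92 (SE 0.21, edgeR adjusted p 0.00512), 1 of 8 tested, a share near the 15.2% of all genes. Of the 4 other Polycomb CBX genes, 14 other PRC1 genes, 5 PRC2 genes and 3 HP1 chromobox genes, all were tested in liver and 0 were called for genotype at RT or TN, with medians from -0.01 to 0.27 against 0.02 (RT) and 0.05 (TN) over all genes. In liver at TN, Cbx8 averaged 7.76 ± 0.338 CPM in WT against 7.59 ± 1.54 in KO, and Cbx6 7.29 ± 4.44 against 7.94 ± 2.21. In BAT at TN Cbx6 rose in both genotypes, by 1.63 in WT (edgeR adjusted p 0.000112) and 0.89 in KO (adjusted p 0.0173), the 1 of 4 CBX genes called, where 32.5% and 15.2% of all genes were. Of the 14 other PRC1 genes in BAT, 1 was called higher and 3 lower at TN in WT, and 0 and 2 in KO. These counts are near the 32.5% and 15.2% of all genes called. Bmi1 fell in WT and KO, by 0.79 and 0.74 on the log2 scale (edgeR adjusted p 0.00016 and 0.0006). Phc3 rose in WT, by a log2 change of 0.81 (edgeR adjusted p 0.00181).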

How the data were processed

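Liver, BAT and eWAT were profiled in 48 libraries. The deposited values are raw counts per Ensembl gene and library, made by the authors with fastp, STAR 2.6.1d and featureCounts 1.5.0-p3 on GRCm38 or mm10, per the submitters' processing notes. The annotation release and strand setting are not given in the sources used here, and gene symbols and exon lengths came from a GENCODE annotation of GRCm38 (52073 of 56748 identifiers, 91.8%). The depth of 23.7 to 43.7 M counts per library limits only low values. Groups came from tissue, genotype and housing in the labels. No libraries were identical.

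The 16 libraries of a tissue entered 1 fit by edgeR 4.0.16 under R 4.3.3: TMM scaling, filterByExpr (minimum count 10), robust quasi-likelihood F tests, two-sided, Benjamini-Hochberg over all genes tested, threshold 0.05. Standard errors are the log2 change divided by the square root of F. Tissues were compared in 1 fit over 24 or 48 libraries. Alternatives were RLE scaling, plain library totals, no filter, at least 1 CPM in 4 libraries, DESeq2 1.42.0, fits on only the 8 libraries of a comparison, each library left out in turn, a block for replicate number, only WT TN libraries, Spearman's rho and a pseudocount of 0.1. Marker sums use plain library totals. The fit was tested on simulated data. Same-numbered libraries of different tissues were checked for pairing. Their median r of 0.022 does not settle whether they come from the same mouse.

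The 4 genes and all lists were chosen with earlier results of these data known. Named besides them are Agt, in each tissue 3 genes of highest Pearson's r of log2(CPM + 0.5) with a mean of at least 1 CPM (Gm and Rik symbols left out; in eWAT only the first is printed), and of each list up to 4 by mean liver CPM plus those called for genotype. Values of 1 listed gene are not reported here.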

Additional observations from a re-analysis of the deposited data

Results flagged for a closer look

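Tceal8 in eWAT of WT mice at RT was flagged because 1 library lay far from the other 3 of its group. Replicate 15 was at 60.1 CPM, while the others lay between 72.5 and 74.1 CPM, so the gap to the nearest took 0.89 of the range of the group, above Dixon's 95% limit for 4 values. It was the only one flagged of 48 combinations of gene and group, and chance flags about 1 in 20.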

How the results depend on the processing

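Most values of the 4 genes kept their sign and their side of the threshold under the alternatives run. In liver at TN, the Cntnap1 effect stayed at -1.24 but lost its call with only the 8 libraries compared (adjusted p 0.0523), and ran from -1.48 to -0.89 with single libraries left out. Clstn3 there ran from -1.16 to -0.78, and Tceal8 from -0.80 (adjusted p 0.0393, a call) to -0.54. Tceal8 was also called with no filter on low counts (-0.65) and by DESeq2 (-0.64). Effects near 0 changed sign. With plain library totals this held for Cbx7 in BAT at TN (-0.00), Clstn3 in eWAT at TN (0.05) and Cbx7 between temperatures in KO eWAT (0.00). Clstn3 in eWAT at TN also turned with no filter (0.01) and with only 8 libraries (0.00), and the Cbx7 level of liver minus eWAT with only WT TN libraries (0.03). With single libraries left out, the ranges that crossed 0 for temperature were -0.17 to 0.06 (Clstn3, WT liver), -0.01 to 0.36 (Clstn3, KO liver), -0.32 to 0.03 (Cbx7, WT eWAT) and -0.20 to 0.14 (Cbx7, KO eWAT). For genotype they were -0.21 to 0.22 (Cbx7, BAT at TN), -0.19 to 0.14 and -0.21 to 0.10 (Cntnap1 and Clstn3, eWAT at RT), and -0.02 to 0.30 and -0.10 to 0.17 (the same genes, eWAT at TN). For the interaction in eWAT they were -0.05 to 0.35 (Cntnap1), -0.10 to 0.22 (Clstn3) and -0.08 to 0.31 (Cbx7), and for Tceal8 in BAT minus eWAT at TN -0.02 to 0.39. The cause was not tested in any of these.

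Counts of genes called moved more, from the lowest to the highest over all alternatives. For genotype they ran from 4 to 180 in liver at RT (15 as reported), 178 to 1111 in liver at TN (560), 0 to 1979 in BAT at RT (16), 0 to 20 in BAT at TN (0), 287 to 1501 in eWAT at RT (821) and 0 to 680 in eWAT at TN (111). The highest was by DESeq2 in each of these except BAT at RT, where it was without WT RT replicate 12, and the eWAT RT low was without WT RT replicate 18. For temperature they ran from 2 to 75 in WT liver (4), 0 to 350 in KO liver (20), 1920 to 4120 in KO BAT (2735), 0 to 95 in WT eWAT (0) and 0 to 1150 in KO eWAT (330). DESeq2 called 21 genes for the interaction in BAT and 12 in eWAT. The BAT minus eWAT level gave 7533 calls in WT TN libraries in place of 13204. The higher share of calls in KO eWAT at TN went from 58.8% to 76.0% with plain library totals.

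Equal replicate numbers across tissues showed little shared deviation with all pairs pooled (median r 0.022 over 35 pairs, and 3 pairs over 0.1). Pairs that included liver ran from -0.0936 to 0.1305 and were mostly positive. Pairs of BAT and eWAT ran from -0.4853 to 0.1848 and were mostly negative. This does not settle whether equal numbers mark the same mouse. Within a tissue the groups share no numbers. With the replicate number as a block, the TN genotype effect of Cntnap1 for liver minus BAT was -1.57 (adjusted p 0.134), and calls over all genes went from 103 to 4 for liver minus BAT, from 412 to 14 for liver minus eWAT and from 1 to 0 for BAT minus eWAT. No call on the 4 genes changed under the block. Depth limits only the lowest value, Cntnap1 in KO liver at RT, which rests on 35 to 77 counts a library.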
